A study of Mus musculus with 27 samples.

Results

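The genes described here encode the glutamate receptors of the brain and the proteins that accompany them: 34 genes, chosen by name and not by any measured value, out of the 39338 genes and added sequences counted. They are the AMPA subunits Gria1 to Gria4, the NMDA subunits Grin1, Grin2a to Grin2d, Grin3a and Grin3b, the kainate subunits Grik1 to Grik5, the delta subunit Grid1, the metabotropic receptors Grm2, Grm3, Grm4, Grm5, Grm7 and Grm8, the auxiliary subunits Cacng2, Cacng3, Cacng4, Cacng5, Cacng7, Cacng8, Cnih2, Cnih3, Neto1 and Neto2, and the scaffold Dlg4. All 34 passed the filter on low counts and were among the 21768 genes tested. RNA was sequenced from EGFP-KASH+ nuclei, which carry a green fluorescent protein held at the nuclear envelope and were sorted from the motor cortex of 27 mice, 1 library each. The C9-BACexp strain, C57BL/6J-Tg(C9ORF72_i3)112Lutzy/J, carries a bacterial artificial chromosome with the human C9ORF72 gene and its expanded repeat, which the C57BL/6J littermates lack. Of the 15 C9-BACexp mice, 6 received crRNA-13, which targets human C9ORF72, 6 received a non-targeted crRNA (NTG) and 3 received EGFP-KASH only. Of the 12 C57BL/6J mice, 3 received crRNA-13, 5 NTG and 4 EGFP-KASH only. The crRNA groups were injected at 6 weeks of age with PHP.eB vectors for RfxCas13d-N2V8 with its crRNA and for EGFP-KASH, and nuclei were sorted 2 months later. EGFP-KASH was driven by the CAG promoter, which is not specific to a cell type. By staining of other injected C9-BACexp mice, the study found EGFP-KASH mostly in NeuN+ neurons and little in GFAP+ astrocytes or Iba1+ microglia. The labels name the effector of the NTG mice as RfxCas13d, and for the EGFP-KASH only groups age and dose are not given in the sources used here.

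Glutamate opens AMPA, NMDA and kainate channels, which differ in speed, calcium permeability and affinity, and it also acts through metabotropic receptors, which signal through G proteins. TARPs (the Cacng genes), cornichons (Cnih2 and Cnih3) and Neto proteins bind the pore-forming subunits and set their trafficking and gating, and PSD-95, the product of Dlg4, anchors them at the postsynaptic density. In the cortex AMPA and NMDA receptors carry most excitatory transmission, while kainate and group III metabotropic receptors also act on presynaptic terminals.

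Totals were 21508829 to 36777972 counts per library, with a median of 29001126, and levels are given as CPM, counts relative to the TMM-scaled total of their library. Human C9ORF72 was at 64.1 to 103 CPM in the C9-BACexp libraries and was counted in 1 of 12 C57BL/6J libraries, at 0.436 CPM. EGFP-KASH was at 9.42 to 109.8 CPM. No marker of the 10 cell type lists was at 0 in every library of a group. Markers of striatal projection neurons, a cell type of a neighbouring region, summed to 1185 to 8679 CPM in C9-BACexp mice and 698 to 1723 CPM in C57BL/6J mice, and 7 libraries, 6 of them from C9-BACexp mice, had a striatal score (the mean log2(CPM + 0.5) of the markers) over 4. Oligodendrocyte markers summed to 876 to 5579 CPM in C9-BACexp mice and 529 to 2573 CPM in C57BL/6J mice. In such bulk libraries fewer cells of a type and less RNA per cell cannot be told apart.

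Promoters of called members are shown here to give the sequence at their starts. A member counts as called when its fold exceeded 1.2 and its adjusted p was under 0.05 (edgeR quasi-likelihood test, Benjamini-Hochberg adjustment over all genes). Of the 34 members, 23 matched the RefSeq promoter table (GRCm38.p6, 250 bases before to 50 after the start of transcription), among them the called members Grik3 (chr4:125490446-125490745, plus strand), Grik5 (chr7:25072320-25072619, minus strand) and Grin2d (chr7:45866632-45866931, minus strand). Capitals mark a GC box, GGGCGG on either strand.
Grik3: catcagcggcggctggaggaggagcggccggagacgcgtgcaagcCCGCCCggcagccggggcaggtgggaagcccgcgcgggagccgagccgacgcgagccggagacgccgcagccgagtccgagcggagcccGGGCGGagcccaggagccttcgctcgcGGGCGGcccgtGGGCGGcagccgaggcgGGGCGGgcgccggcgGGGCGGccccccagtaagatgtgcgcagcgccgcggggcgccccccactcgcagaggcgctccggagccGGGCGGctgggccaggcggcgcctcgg
Grik5: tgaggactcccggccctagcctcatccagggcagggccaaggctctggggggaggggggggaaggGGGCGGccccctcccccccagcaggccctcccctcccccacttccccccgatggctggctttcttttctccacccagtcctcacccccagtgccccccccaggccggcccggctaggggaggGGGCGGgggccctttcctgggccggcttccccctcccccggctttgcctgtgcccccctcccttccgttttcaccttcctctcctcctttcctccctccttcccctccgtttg
Grin2d: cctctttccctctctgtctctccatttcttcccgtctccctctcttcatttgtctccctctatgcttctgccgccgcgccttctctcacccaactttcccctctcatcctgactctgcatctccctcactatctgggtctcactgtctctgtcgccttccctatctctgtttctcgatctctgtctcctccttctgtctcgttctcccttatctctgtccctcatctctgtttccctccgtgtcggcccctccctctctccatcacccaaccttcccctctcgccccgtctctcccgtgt

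The Grik3 promoter held 7 GC boxes and is 82% G or C, that of Grik5 held 2 at 72%, and that of Grin2d held 0 at 56%. The table holds 30 promoters of the 23 members, since some members have more than 1 entry. A GC box was found in 16 of these 30 promoters (53.3%) and in 35.7% of all 32851 promoters. The median share of G or C was 62.7% in member promoters and 52.7% in all promoters. GC boxes were not counted among promoters of matched composition. TATAAA, on either strand, was found in 1 of the 30 (3.33%) and in 13.6% of all promoters, and TGACGTCA in 0 of the 30 and in 1.79%. Neither was found in the promoters printed, so no motif overlapped another there. On GRCm39 the genes called in any comparison lie at chr4:125384202-125607966 (Grik3), chr7:24709269-24772708 (Grik5), chr7:45481304-45527802 (Grin2d), chr17:27641361-27740377 (Grm4), chr11:107623183-107685662 (Cacng4) and chr11:56902153-57221080 (Gria1).

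Mice given NTG carry an effector without a guide against the repeat gene, and among them the kainate subunits Grik3 and Grik5 were higher in C9-BACexp mice. Grik3, a kainate subunit that forms channels of low affinity, was at 647, 871 and 1039 CPM (lowest, median and highest) in C9-BACexp mice, against 569.6, 346, 776, 502 and 491 CPM in C57BL/6J mice. The groups overlapped, since replicate 3 of the C57BL/6J mice stood above replicates 1 and 6 of the C9-BACexp mice. The difference was called (log2 fold 0.70, SE 0.11, adjusted p = 0.00174). Grik5, a high-affinity subunit that needs a partner such as Grik3 to form a channel, was at 304, 419 and 452 CPM (lowest, median and highest) in C9-BACexp mice, against 296, 265, 449.9, 309 and 217 CPM in C57BL/6J mice. Here replicate 3 of the C57BL/6J mice lay among the highest C9-BACexp libraries, and the difference was called (log2 fold 0.41, SE 0.077, adjusted p = 0.00572). Without C57BL/6J NTG replicate 5 the log2 fold of Grik5 was 0.29 with an adjusted p of 0.0695, which ended the call, while Grik3 was called whichever of the 11 NTG libraries was left out. Both kept their calls without the libraries of high striatal score (log2 fold 0.85, adjusted p = 6.3e-04 for Grik3, and 0.46, 0.00154 for Grik5). Neither did so if the factors were dropped too (adjusted p = 0.456 and 0.700).

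These were 2 of 34 members, both higher, a share near the 6.6% of all genes called in either direction, with 4.01% of all genes called higher. The median log2 fold of the members was 0.088, and that of all genes tested 0.017. All 5 kainate subunits had estimates above 0, with a median of 0.36, and 3 of the 4 AMPA subunits had estimates below 0. Cacng4, which encodes the TARP gamma-4, had the largest estimate (log2 fold 1.28, SE 0.34, adjusted p = 0.0502) and did not pass. Leaving out 1 library gave it log2 folds of 0.84 (without C9-BACexp replicate 6) to 1.43, and it passed in 3 of the 11 fits, without C9-BACexp replicates 1, 3 or 5 (adjusted p down to 0.0328). Gria1 passed without C9-BACexp replicates 1 or 3 or C57BL/6J replicates 1 or 3, Grm4 without replicate 1 of the C9-BACexp mice or 3 of the C57BL/6J mice, and Grm3 without replicate 2 of the C9-BACexp mice or 5 of the C57BL/6J mice, all higher. Grm4 also passed without the libraries of high striatal score (log2 fold 0.74, adjusted p = 0.0367), but not if the factors were dropped too (adjusted p = 0.658). The levels of Cacng4 did not overlap, at 17.5 to 77.0 CPM in C9-BACexp mice and 10.6 to 15.6 CPM in C57BL/6J mice. Grin2c, an NMDA subunit known mainly from the cerebellum, did not overlap either, at 7.69 to 15.8 CPM in C9-BACexp mice and 16.4 to 30.3 CPM in C57BL/6J mice (log2 fold -0.72, SE 0.26, adjusted p = 0.167). Of the 34 members, 1 lay wholly above and 1 wholly below with NTG, and how many of all genes do so was not counted. Without the factors of unwanted variation edgeR called 0 members, beside 0.0276% of all genes. An unadjusted p under 0.05 was found for 6 members without the factors, beside 14.1% of all genes, and for 14 with them, beside 25.9%. Markers of deep-layer neurons summed to 2509 to 3462 CPM in these C9-BACexp mice and 1272 to 2314 CPM in the C57BL/6J mice, with 5 of 14 called higher, and excitatory neuron markers to 957 to 1184 CPM and 1161 to 1322 CPM. Upper-layer markers were called lower in 4 of 10 and oligodendrocyte markers higher in 14 of 16. With no factors 0 markers of the deep-layer, upper-layer and oligodendrocyte lists were called. The part of these cell types in the receptor results was not tested.

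Among mice given crRNA-13, 0 of 34 members were called between the genotypes, beside 1.09% of all genes. The smallest p was that of Gria3, an AMPA subunit encoded on the X chromosome. Gria3 was at 562, 676 and 712 CPM (lowest, median and highest) in C9-BACexp mice and at 660.0, 789 and 811 CPM in C57BL/6J mice. The groups overlapped, with the lowest C57BL/6J library inside the C9-BACexp range and the other C57BL/6J libraries above it (log2 fold -0.21, SE 0.058, adjusted p = 0.0608). Grik3 was at 669, 816 and 1264 CPM (lowest, median and highest) in C9-BACexp mice and at 703, 809 and 436 CPM in C57BL/6J mice. It came second, again with overlapping groups (log2 fold 0.43, SE 0.13, adjusted p = 0.0927). Deep-layer markers summed to 2425 to 3731 CPM in these C9-BACexp mice and 2377 to 3734 CPM in the C57BL/6J mice. An unadjusted p under 0.05 was found for 7 members with the factors, beside 12.4% of all genes, and 3 without, beside 5.17%. Without the factors edgeR again called 0 members, beside 0.0184% of all genes. Leaving out C9-BACexp replicate 1 called 2 members, Grik3 and Grik5, leaving out C57BL/6J replicate 1 called 2, Gria2 and Gria3 (both lower), and leaving out C57BL/6J replicate 2 called 1, Grik3. Grik5 was called without the libraries of high striatal score (log2 fold 0.28, adjusted p = 0.0499), but not if the factors were dropped too (adjusted p = 0.859). Without C57BL/6J replicate 5 the estimate of Grik3 was 0.16 (adjusted p = 0.718), and that of Grik5 went down to 0.14 without C9-BACexp replicate 2, with an adjusted p of up to 0.566 when C57BL/6J replicate 5 was left out.

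Among mice given EGFP-KASH only, the AMPA subunit Gria1 was higher in C9-BACexp mice. Gria1, whose insertion at synapses accompanies potentiation, was at 1686, 2040.0 and 1643 CPM in C9-BACexp mice, against 1578, 1506, 1202 and 1145 CPM in C57BL/6J mice. Every C9-BACexp library was above every C57BL/6J library (log2 fold 0.42, SE 0.10, adjusted p = 0.0251). Of the 34 members, 1 lay wholly above and 0 wholly below, in groups of 3 and 4 libraries. How many of all genes do so was not counted. Gria1 was the 1 of 34 members called, a share near the 2.86% of all genes called in either direction, with 1.59% of all genes called higher. The call ended without C9-BACexp replicate 3, C57BL/6J replicate 4 or C57BL/6J replicate 5 (adjusted p = 0.123, 0.0915 and 0.107) and without the libraries of high striatal score (log2 fold 0.23, adjusted p = 0.264). Without factors edgeR called 0 members, beside 0.0184% of all genes, and 2 members had an unadjusted p under 0.05, beside 7.94% of all genes. Grik3 was at 709.9, 801 and 738 CPM in C9-BACexp mice and 999, 877, 429 and 382 CPM in C57BL/6J mice, where the C57BL/6J libraries lay on both sides of the C9-BACexp ones. Oligodendrocyte markers were called higher in 7 of 16 in this comparison, with a median log2 fold of 1.05, and summed to 1861 to 2483 CPM in these C9-BACexp mice and 561 to 2036 CPM in the C57BL/6J mice, and markers of their precursors were called higher in 2 of 7. With no factors 0 markers of either list were called. The part of these cell types in the result for Gria1 was not tested.

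**Figure D1:**
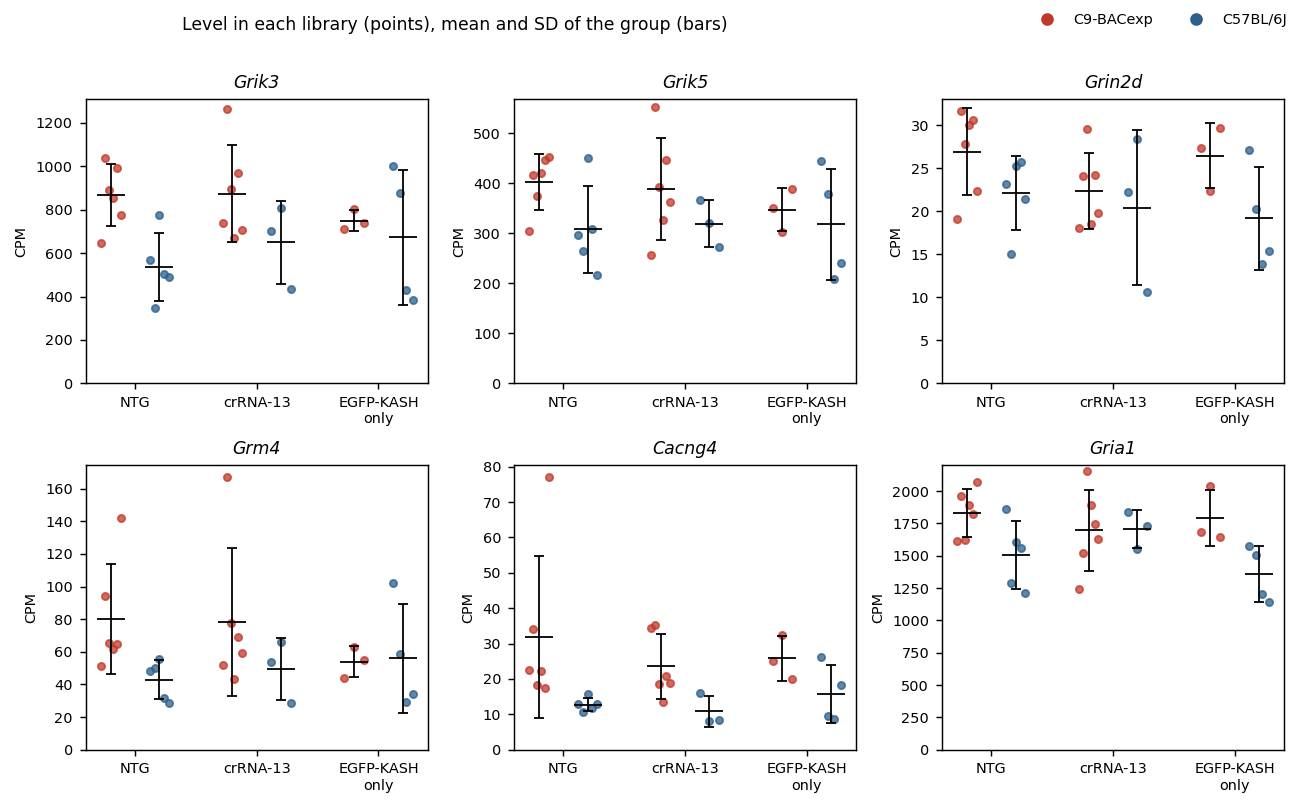
Level in CPM (vertical axes, from 0) of the 6 members called in any comparison, by treatment, with C9-BACexp mice in red left of C57BL/6J mice in blue, a point per library, and each group's mean and SD as bars. Cacng4 stands at 77.0 CPM in 1 C9-BACexp NTG library, and Grik3 spreads over 382 to 999 CPM in the C57BL/6J mice with EGFP-KASH only.

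Averaged over the 3 treatments, 5 members were higher in C9-BACexp mice and 0 lower: Grik3, Grik5, Cacng4, Grm4 and Grin2d. By family these were 2 of 5 kainate subunits, 1 of 6 TARPs, 1 of 6 metabotropic receptors and 1 of 7 NMDA subunits, while 0 of the 4 AMPA subunits, Grid1, the cornichons, the Neto proteins and Dlg4 were called. Of all genes, 9.73% were called in either direction and 4.94% called higher. The median log2 fold of the members was 0.055, against -0.018 for all genes. At any fold, 8 members had an adjusted p under 0.05, beside 15.6% of all genes. In the same comparison oligodendrocyte markers were called higher in 15 of 16 and lower in 0, deep-layer markers higher in 5 of 14 and lower in 0, and upper-layer markers lower in 5 of 10 and higher in 0. With no factors edgeR called 0 of the 16 oligodendrocyte, 2 of the 14 deep-layer and 3 of the 10 upper-layer markers. Deep-layer markers summed to 2425 to 3731 CPM in C9-BACexp mice and 1272 to 3734 CPM in C57BL/6J mice, and upper-layer markers to 419 to 961 CPM in C9-BACexp mice and 580 to 1492 CPM in C57BL/6J mice. The part of these cell types in the members' differences was not tested.

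Grik3 averaged 845 ± 167 CPM in C9-BACexp mice and 609.9 ± 215 CPM in C57BL/6J mice (SD, n = 15 and 12), and the difference was called (log2 fold 0.47, SE 0.075, adjusted p = 2.1e-04). All 15 C9-BACexp libraries were above the C57BL/6J median of 536 CPM, while 2 of them were above the highest C57BL/6J library. With factors it was called in each of the 27 fits that left out 1 library. With none, its adjusted p was under 0.05 in 0 of 27 such fits (0.0646 to 0.327). Leaving out the libraries of high striatal score gave Grik3 a log2 fold of 0.43 with factors (adjusted p = 9.1e-04) and 0.37 without (adjusted p = 0.357). Grik5 averaged 386 ± 74.2 CPM in C9-BACexp mice and 314 ± 80.9 CPM in C57BL/6J mice (SD, n = 15 and 12), with 13 of 15 C9-BACexp libraries above the C57BL/6J median (log2 fold 0.29, SE 0.051, adjusted p = 5.7e-04). Its fold lay just past 1.2, and it dropped below that in 6 of the 27 fits (without C9-BACexp crRNA-13 replicate 2, C9-BACexp EGFP-KASH only replicate 5, C57BL/6J NTG replicate 5, C57BL/6J crRNA-13 replicate 5 and C57BL/6J EGFP-KASH only replicates 4 and 5), at log2 folds of 0.23 to 0.26 and adjusted p of at most 0.00889. With no factors, 0 of 27 fits had an adjusted p under 0.05 for Grik5 (0.143 to 0.496). Leaving out the libraries of high striatal score gave it a log2 fold of 0.31 with factors (adjusted p = 5.6e-04) and 0.27 without (adjusted p = 0.409).

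Cacng4 had the largest fold of the members. It averaged 27.3 ± 15.4 CPM in C9-BACexp mice and 13.2 ± 5.21 CPM in C57BL/6J mice (SD, n = 15 and 12), and the difference was called (log2 fold 1.05, SE 0.22, adjusted p = 0.00297). Its C9-BACexp libraries were at 17.5, 22.3 and 77.0 CPM (lowest, median and highest) under NTG, 13.4, 19.8 and 35.4 CPM (lowest, median and highest) under crRNA-13 and 25.1, 32.5 and 19.9 CPM under EGFP-KASH only. The C57BL/6J libraries were at 12.8, 10.6, 15.6, 11.7 and 12.9 CPM under NTG, 15.9, 8.12 and 8.53 CPM under crRNA-13 and 26.2, 9.53, 8.75 and 18.3 CPM under EGFP-KASH only. Every C9-BACexp library was thus above the C57BL/6J median of 12.3 CPM, and 5 of 15 were above the highest C57BL/6J library. Cacng4 was the 1 member also called without factors (log2 fold 1.05, adjusted p = 0.0284), beside 1.6% of all genes. Leaving out 1 library kept its call in 27 of 27 fits with factors and in 23 of 27 without. Without the 7 libraries of high striatal score its log2 fold was 0.75 with factors (adjusted p = 0.0141) and 0.72 without (adjusted p = 0.211). Striatal markers were called higher in 4 of 13 in the same comparison, and 3 of 13 were called with no factors.

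Grm4, a group III metabotropic receptor that lowers transmitter release, averaged 74.0 ± 35.5 CPM in C9-BACexp mice and 48.8 ± 21.3 CPM in C57BL/6J mice (SD, n = 15 and 12). The groups overlapped, with the highest values in C9-BACexp crRNA-13 replicate 2 at 167 CPM and C9-BACexp NTG replicate 6 at 142 CPM (log2 fold 0.53, SE 0.16, adjusted p = 0.0289). Without the libraries of high striatal score the log2 fold was 0.32 (adjusted p = 0.0943), which ended the call, as did leaving out C9-BACexp EGFP-KASH only replicate 3, C57BL/6J NTG replicate 5, C57BL/6J crRNA-13 replicate 5 and C57BL/6J EGFP-KASH only replicates 4 and 5 in turn (5 of 27 fits, adjusted p = 0.0613 to 0.139). Grin2d, an NMDA subunit known from early life and from interneurons, averaged 25.0 ± 4.83 CPM in C9-BACexp mice and 20.7 ± 5.74 CPM in C57BL/6J mice (SD, n = 15 and 12). It overlapped as well, with 11 of 15 C9-BACexp libraries above the C57BL/6J median (log2 fold 0.31, SE 0.099, adjusted p = 0.0349). Its call ended in 11 of the 27 fits, without C9-BACexp NTG replicates 2, 3, 4 and 5, C9-BACexp crRNA-13 replicates 3 and 6, C9-BACexp EGFP-KASH only replicate 5, C57BL/6J NTG replicate 2, C57BL/6J crRNA-13 replicate 5 and C57BL/6J EGFP-KASH only replicates 4 and 5 (adjusted p = 0.0522 to 0.200). Leaving out the libraries of high striatal score gave Grin2d a log2 fold of 0.44 with factors (adjusted p = 0.0135) and 0.39 without (adjusted p = 0.337). With no factors, 0 of 27 leave-one-out fits gave Grm4 or Grin2d an adjusted p under 0.05.

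Gria3, Grin2a and Gria1 had an adjusted p under 0.05 at folds under 1.2. Gria3 averaged 661 ± 46.4 CPM in C9-BACexp mice and 734 ± 49.2 CPM in C57BL/6J mice (SD, n = 15 and 12), with a log2 fold of -0.15 (SE 0.033) and an adjusted p of 0.00446. Of the 15 C9-BACexp libraries, 7 were below the lowest C57BL/6J library and 0 above the C57BL/6J median. Grin2a, the subunit of mature NMDA receptors, averaged 1871 ± 241 CPM in C9-BACexp mice and 2105 ± 303 CPM in C57BL/6J mice (SD, n = 15 and 12), with a log2 fold of -0.18 (SE 0.049) and an adjusted p of 0.0162, and without the libraries of high striatal score the adjusted p was 0.0690 for Gria3 and 0.0856 for Grin2a. Gria1 averaged 1769 ± 241 CPM in C9-BACexp mice and 1507 ± 246 CPM in C57BL/6J mice (SD, n = 15 and 12), with a log2 fold of 0.23 (SE 0.053) and an adjusted p of 0.00500. Leaving out the libraries of high striatal score kept its log2 fold at 0.23 (adjusted p = 0.0125). With the replicate number as a block the adjusted p was 0.0585 for Gria1 and 0.0605 for Grin2a, and that of Grin2a was over 0.05 without C9-BACexp EGFP-KASH only replicate 3 or C57BL/6J crRNA-13 replicate 2, reaching 0.0597, while Gria3 and Gria1 stayed under 0.05 in each of the 27 fits with factors that left out 1 library. With no factors, 0 of 27 such fits gave Gria3, Grin2a or Gria1 an adjusted p under 0.05. Of the members that did not pass, Grin1, the subunit every NMDA receptor needs, had an estimate of 0.023 (SE 0.032), Dlg4 one of -0.060 (SE 0.053) and the kainate receptor partners Neto1 and Neto2 ones of -0.14 (SE 0.058) and -0.22 (SE 0.087). The 26 members with an adjusted p of 0.05 or more had estimates of -0.37 (Grin2c) to 0.28 (Grik1), with 15 above 0 and 11 below, and the smallest adjusted p among them was that of Grik1, 0.0641. Leaving out 1 library called Grik1 (higher) in 5 of 27 fits, without C9-BACexp crRNA-13 replicate 2, C9-BACexp EGFP-KASH only replicate 3, C57BL/6J NTG replicates 1 or 4 or C57BL/6J crRNA-13 replicate 2, and Neto2 (lower) in 3, without C9-BACexp crRNA-13 replicate 1, C57BL/6J crRNA-13 replicate 1 or C57BL/6J EGFP-KASH only replicate 2. Grin3b was the sparsest member, with 0 to 34 counts per library.

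**Figure D2:**
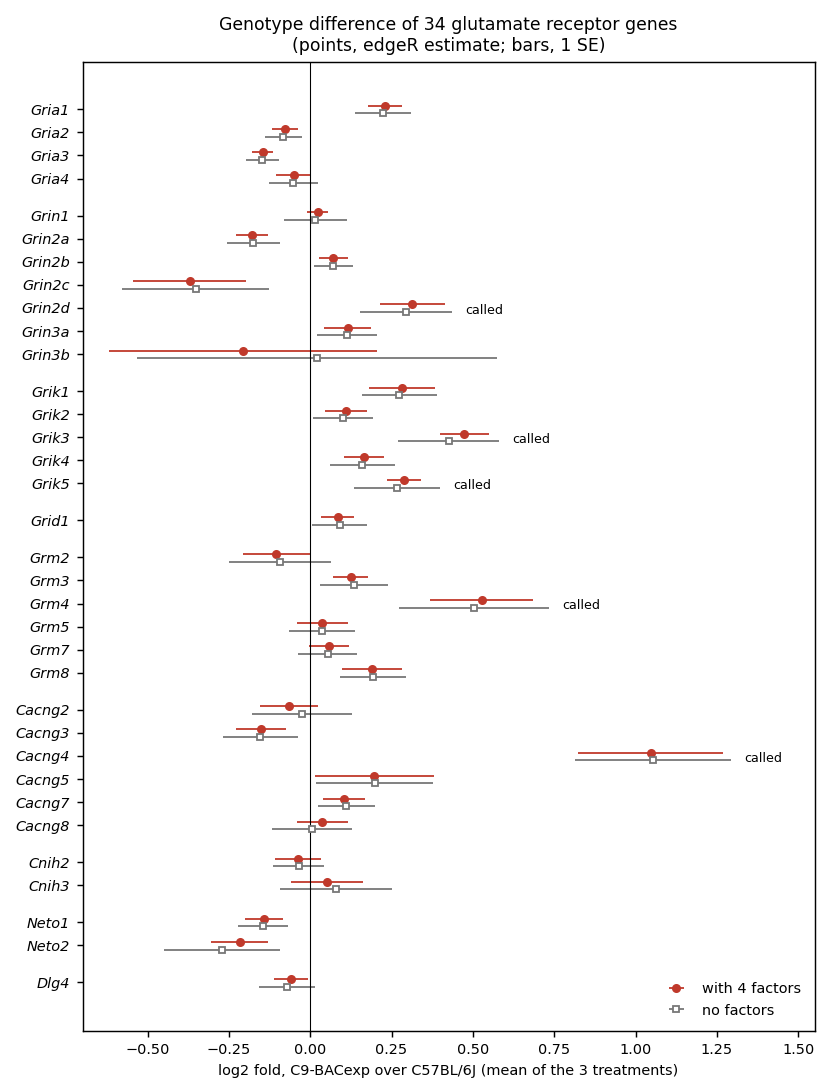
Log2 fold of each of the 34 members, C9-BACexp over C57BL/6J, averaged over the 3 treatments (horizontal axis), by family down the page, as red circles with 4 factors and grey squares with none, with bars of 1 SE and "called" beside the 5 members called with factors. All 5 kainate subunits lie above 0, from 0.11 to 0.47, and Cacng4 lies at 1.05.

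The effect of crRNA-13 was measured against NTG in C9-BACexp mice, where 0 of 34 members were called, beside 0.478% of all genes. An unadjusted p under 0.05 was found for 4 members, beside 10.3% of all genes. Grik2, a kainate subunit of principal neurons, had the smallest p. It was at 504, 592 and 629 CPM (lowest, median and highest) under crRNA-13, against 605, 685 and 937 CPM (lowest, median and highest) under NTG. The upper crRNA-13 libraries overlapped with the lower NTG ones (log2 fold -0.29, SE 0.094, adjusted p = 0.111). Grik1, a kainate subunit known from interneurons, was at 147, 188 and 200.1 CPM (lowest, median and highest) under crRNA-13, against 193, 238 and 278 CPM (lowest, median and highest) under NTG, also with overlap (log2 fold -0.40, SE 0.15, adjusted p = 0.165). Interneuron markers summed to 528 to 741 CPM under crRNA-13 and 728 to 937 CPM under NTG, with a median log2 fold of -0.27 and 0 of 12 called, and their part in the estimate for Grik1 was not tested. Estimates were below 0 for 25 of 34 members, all 5 kainate and all 4 AMPA subunits among them, with a median of -0.085 against -0.023 over all genes. Above 0 were 26.5% of the members and 45.4% of all genes. The NTG libraries here also serve in the genotype comparison with NTG, so the signs in the 2 comparisons are not independent. Without factors edgeR called 0 members, beside 0% of all genes, and 2 members had an unadjusted p under 0.05, beside 5.28% of all genes.

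**Figure D3:**
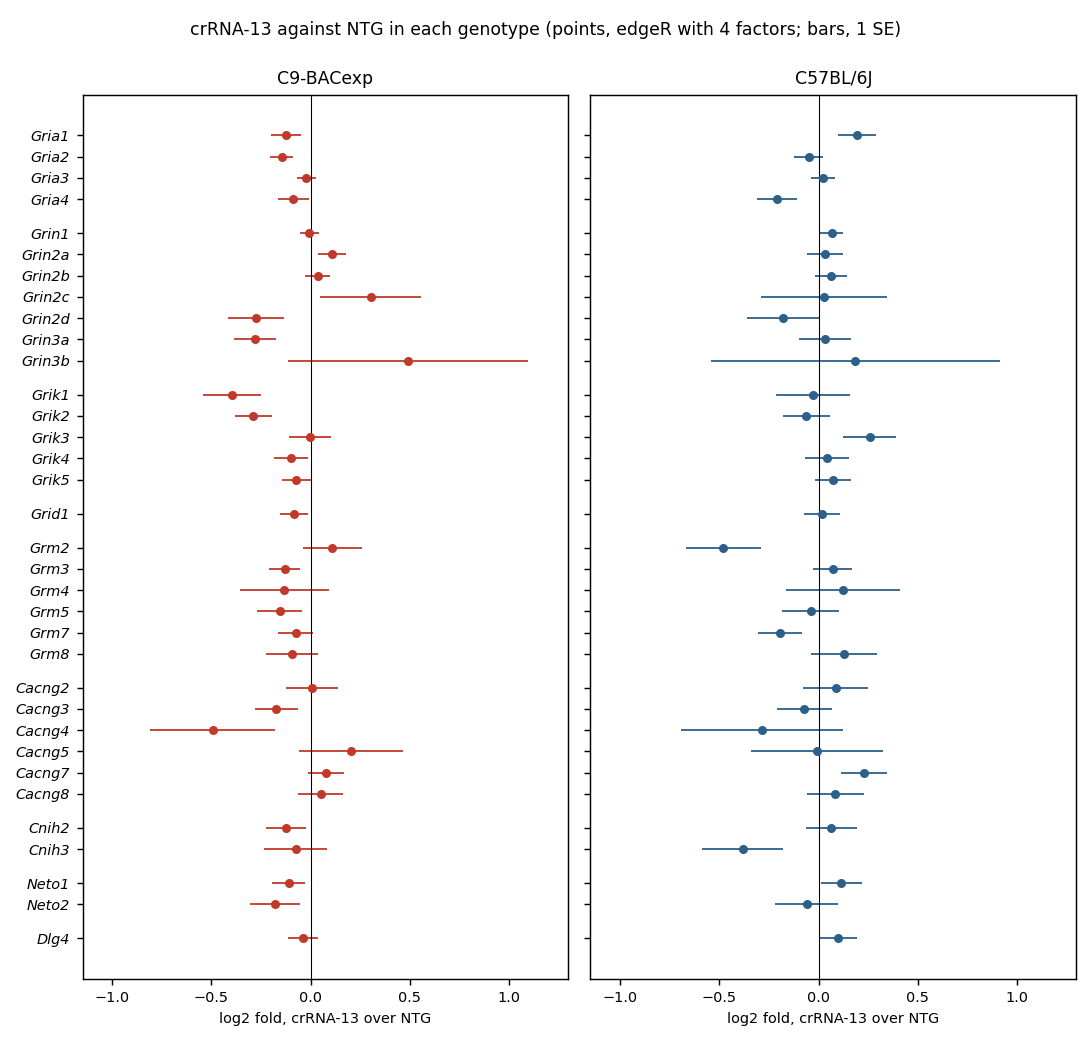
Log2 fold of each member, crRNA-13 over NTG, in C9-BACexp mice (left) and C57BL/6J mice (right), from the fit with 4 factors, with bars of 1 SE. No member was called in either genotype, and in C9-BACexp mice the kainate subunits lie at -0.40 to -0.0032 and the AMPA subunits at -0.14 to -0.021.

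Against EGFP-KASH only, crRNA-13 in C9-BACexp mice called 0 members with factors, beside 0.923% of all genes, and 0 without, beside 0.0138%. An unadjusted p under 0.05 was found for 2 members with factors, beside 12.2% of all genes, and for 0 without, beside 5.32%. Grin1 was at 353, 463 and 642 CPM (lowest, median and highest) with crRNA-13 and 468, 385 and 424 CPM with EGFP-KASH only, which overlapped (log2 fold 0.15, SE 0.057, adjusted p = 0.188). Grin3b, a glycine-binding NMDA subunit, was at 0.0900, 0.343 and 1.13 CPM (lowest, median and highest) with crRNA-13 and 0, 0.180 and 0.212 CPM with EGFP-KASH only, a few counts per library (adjusted p = 0.204). NTG was set against the same EGFP-KASH libraries and called 0 members with factors, beside 0.0322% of all genes, and 0 without, beside 0.00919%. It gave 2 members an unadjusted p under 0.05 with factors, beside 11.2% of all genes, and 0 without, beside 4.55%. Its smallest p were those of Grin1, at 417, 474 and 527 CPM (lowest, median and highest) with NTG (log2 fold 0.15, SE 0.057, adjusted p = 0.309), and of Grik5, at 304 to 452 CPM with NTG and 351, 302 and 388 CPM with EGFP-KASH only (log2 fold 0.20, SE 0.090, adjusted p = 0.411). Both overlapped between the groups.

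In C57BL/6J mice, which lack the target, crRNA-13 against NTG called 0 members at the stricter limits of this comparison (a fold over 1.25 and an adjusted p under 0.01), beside 0% of all genes with factors and 0% without. An unadjusted p under 0.05 was found for 2 members with factors, beside 11.1% of all genes, and 0 without, beside 4.81%. Grm2, a group II receptor of presynaptic terminals, was at 11.9, 9.42 and 13.5 CPM under crRNA-13, against 17.0, 19.2, 19.7, 16.4 and 9.58 CPM with NTG, overlapping in the lowest NTG library (log2 fold -0.48, SE 0.19, adjusted p = 0.312). Gria4, an AMPA subunit, was at 543, 496 and 587 CPM under crRNA-13, against 564, 626, 644, 647 and 639.9 CPM with NTG, with overlap in the lowest NTG library (log2 fold -0.21, SE 0.10, adjusted p = 0.445). Against EGFP-KASH only, crRNA-13 called 0 members with factors, beside 0.404% of all genes, and 0 without, beside 0%. It gave 2 members an unadjusted p under 0.05 with factors, beside 11.2% of all genes, and 0 without, beside 4.77%. Gria1 was at 1838, 1552 and 1734 CPM under crRNA-13, against 1578, 1506, 1202 and 1145 CPM with EGFP-KASH only (log2 fold 0.34, SE 0.10, adjusted p = 0.159). Grid1, whose product binds cerebellins, was at 1001, 768 and 876 CPM under crRNA-13, against 791, 799, 735 and 666 CPM with EGFP-KASH only (log2 fold 0.23, SE 0.095, adjusted p = 0.364). Gria1 and Grid1 each overlapped in 1 crRNA-13 library. NTG against the same EGFP-KASH libraries called 0 members with factors and 0 without, beside 0% and 0% of all genes. It gave 1 member an unadjusted p under 0.05 with factors, beside 7.86% of all genes, and 0 without, beside 3.80%. Its smallest p were those of Grid1, at 1016, 838, 912, 824 and 741 CPM with NTG (log2 fold 0.21, SE 0.084, adjusted p = 0.558), and of Cnih2, at 16.5, 25.6, 24.7, 23.3 and 28.1 CPM under NTG and 32.7, 25.0, 28.9 and 25.5 CPM with EGFP-KASH only (log2 fold -0.24, SE 0.12, adjusted p = 0.641). Both overlapped between the groups here too.

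The genotype difference with crRNA-13 was set against that with NTG by the interaction of the model. It called 0 of 34 members with factors, beside 0.00459% of all genes, and 0 without, beside 0%. An unadjusted p under 0.05 was found for 2 members with factors, beside 10.4% of all genes, and for 0 without, beside 4.24%. For Gria1 the genotype log2 fold was -0.024 (SE 0.093) with crRNA-13 and 0.29 (SE 0.080) with NTG, a difference of -0.32 (SE 0.12, adjusted p = 0.368). For Grm2 it was 0.25 (SE 0.18) with crRNA-13 and -0.34 (SE 0.15) with NTG, a difference of 0.59 (SE 0.24, adjusted p = 0.381). The difference was -0.26 (SE 0.17) for Grik3 and -0.15 (SE 0.12) for Grik5, with adjusted p of 0.629 and 0.720, so the calls of both with NTG alone are not shown to differ between the treatments.

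Genes that supply, clear or anchor glutamate signalling formed 3 further lists. In the mean over treatments, 4 of 17 genes of glutamate transport and metabolism were lower in C9-BACexp mice and 0 higher, beside 4.79% of all genes called lower, with a median log2 fold of -0.19. Slc1a3 (log2 fold -0.46, adjusted p = 3.0e-04) and Slc1a2 (log2 fold -0.32, adjusted p = 0.00173), the glutamate transporters of astrocytes, were lower, also without factors (adjusted p = 0.0394 and 0.0459). Both stand in the astrocyte marker list too, of which 9 of 12 were lower and 0 higher, and which summed to 747 to 1109 CPM in C9-BACexp mice and 847 to 1284 CPM in C57BL/6J mice. With no factors 4 of the 12 astrocyte markers were called. The part of astrocyte nuclei was not tested. Slc1a4, a transporter of neutral amino acids (log2 fold -0.27, adjusted p = 0.0123), and Slc38a3, a glutamine transporter (log2 fold -0.46, adjusted p = 0.0438), were lower as well. With NTG, 3 of 17 were lower and 0 higher, beside 2.6% of all genes called lower, among them Slc1a3 (log2 fold -0.65, adjusted p = 0.00327) and glutamate dehydrogenase, Glud1 (log2 fold -0.32, adjusted p = 0.0188). With crRNA-13 and with EGFP-KASH only 0 of 17 were called, beside 1.09% and 2.86% of all genes.

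Of 25 postsynaptic scaffolds and kinases, 2 were lower and 0 higher in the mean over treatments, a share near the 9.73% of all genes called in either direction, with 4.79% of all genes called lower. These were Nlgn1, a synaptic adhesion protein (log2 fold -0.29, adjusted p = 2.5e-05), and Homer1, which binds group I metabotropic receptors (log2 fold -0.46, adjusted p = 0.0195). With NTG 4 of the 25 were called, beside 6.6% of all genes: Nlgn1 was lower (log2 fold -0.39, adjusted p = 5.8e-04), and 3 were higher: Camk2b, a subunit of a calcium-dependent kinase of synapses (log2 fold 0.38, adjusted p = 0.0104), the AMPA receptor scaffold Grip1 (log2 fold 0.30, adjusted p = 0.0360) and its partner Gripap1 (log2 fold 0.29, adjusted p = 0.0262). Of 28 other receptor-associated proteins, 4 were called in the mean over treatments, beside 9.73% of all genes, and 2 each with EGFP-KASH only and with NTG, beside 2.86% and 6.6%. The AMPA receptor partners Prrt1 (log2 fold 0.30, adjusted p = 0.00960) and Shisa9 (log2 fold 0.28, adjusted p = 0.0116) were higher in the mean over treatments, and the cerebellins Cbln4 (log2 fold -0.93, adjusted p = 0.0205) and Cbln2 (log2 fold -0.38, adjusted p = 0.0491) lower. With EGFP-KASH only, Shisa9 (log2 fold 0.67, adjusted p = 0.00900) and Prrt1 (log2 fold 0.54, adjusted p = 0.0450) were higher, and with NTG, Shisa7 was higher (log2 fold 0.34, adjusted p = 0.0285) and Frrs1l, a factor of AMPA receptor assembly, lower (log2 fold -0.38, adjusted p = 0.0492). Without factors 0 genes of the scaffolds and of the other receptor-associated proteins were called in the mean over treatments, and 0 genes of the 3 lists with NTG or with EGFP-KASH only. In crRNA-13 against NTG in C9-BACexp mice 0 genes of all 3 lists were called with factors and 0 without, beside 0.478% of all genes with factors.

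Within groups, members differed in how far mice lay apart. The SD of log2 levels around the group means was smallest for Gria3 (0.11), Gria2 (0.12) and Grin2b (0.14) and largest for Grm4 (0.59), Cacng4 (0.58) and Grin2c (0.58). The log2 level of each member was then set against the scores of 8 cell type marker lists over the 27 libraries, both centred on their group means. Of 272 relations, 49, in 22 members, had an adjusted permutation p under 0.05 (two-sided, 100000 permutations), and each of the 49 had the same sign in both genotypes. The 49 were selected over these same libraries, so the shared sign is not independent of that selection. The scores themselves were related, with r = 0.89 between oligodendrocytes and their precursors, 0.72 between oligodendrocytes and interneurons and -0.87 between upper- and deep-layer neurons, so relations of 1 member to several lists are not independent.

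Oligodendrocyte scores were related to 13 members, 12 of them negatively. Cacng3, which encodes the TARP gamma-3, was lower where oligodendrocyte markers were higher (r = -0.81, rho = -0.80, permutation p = 7.0e-05, adjusted p = 0.0125, and r = -0.71 without the 2 libraries of most extreme score). Cacng8 (r = -0.76), Gria1 (r = -0.72), Grm7 (r = -0.72) and Dlg4 (r = -0.70) followed it. Grm3, a group II receptor also found in glia, was the positive one (r = 0.69, rho = 0.66, permutation p = 5.1e-04, adjusted p = 0.0125, and r = 0.52 without the 2 libraries of most extreme score), with r = 0.79 in C9-BACexp mice and 0.62 in C57BL/6J mice. Interneuron scores were related to 8 members, 7 of them negatively, such as Grik5 (r = -0.73) and the cornichon Cnih3 (r = -0.68). Neto2 was the positive one (r = 0.75, rho = 0.67, permutation p = 6.5e-04, adjusted p = 0.0125, and r = 0.71 without the 2 libraries of most extreme score). Grik1 did not pass with this score (r = 0.26, permutation p = 0.309, adjusted p = 0.477), with r = -0.033 in C9-BACexp mice and 0.38 in C57BL/6J mice.

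Gria3 was higher where the upper-layer score was higher (r = 0.71, rho = 0.72, permutation p = 2.5e-04, adjusted p = 0.0125, and r = 0.65 without the 2 libraries of most extreme score) and lower where the deep-layer score was (r = -0.66). Cacng3 (r = 0.71) and Grm5, a group I receptor (r = 0.54), were also positively related to the upper-layer score. Grik3 was higher where the deep-layer score was higher (r = 0.62, rho = 0.56, permutation p = 0.00514, adjusted p = 0.0346, and r = 0.50 without the 2 libraries of most extreme score), as was Grm8, a group III receptor (r = 0.59). With the striatal score Grik2 was positively (r = 0.58) and Grik4 (r = -0.59) and Grik1 (r = -0.47) negatively related. Cacng4 was higher where the striatal score was higher (r = 0.69, rho = 0.63, permutation p = 0.00203, adjusted p = 0.0197, and r = 0.53 without the 2 libraries of most extreme score), with r = 0.83 in C9-BACexp mice and 0.25 in C57BL/6J mice, a difference that was not tested. Grm4 had no relation that passed. Leaving out C9-BACexp crRNA-13 replicate 1 left 25 relations, leaving out C57BL/6J NTG replicate 5 left 32, and leaving out C9-BACexp crRNA-13 replicate 2 gave 78.

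**Figure D4:**
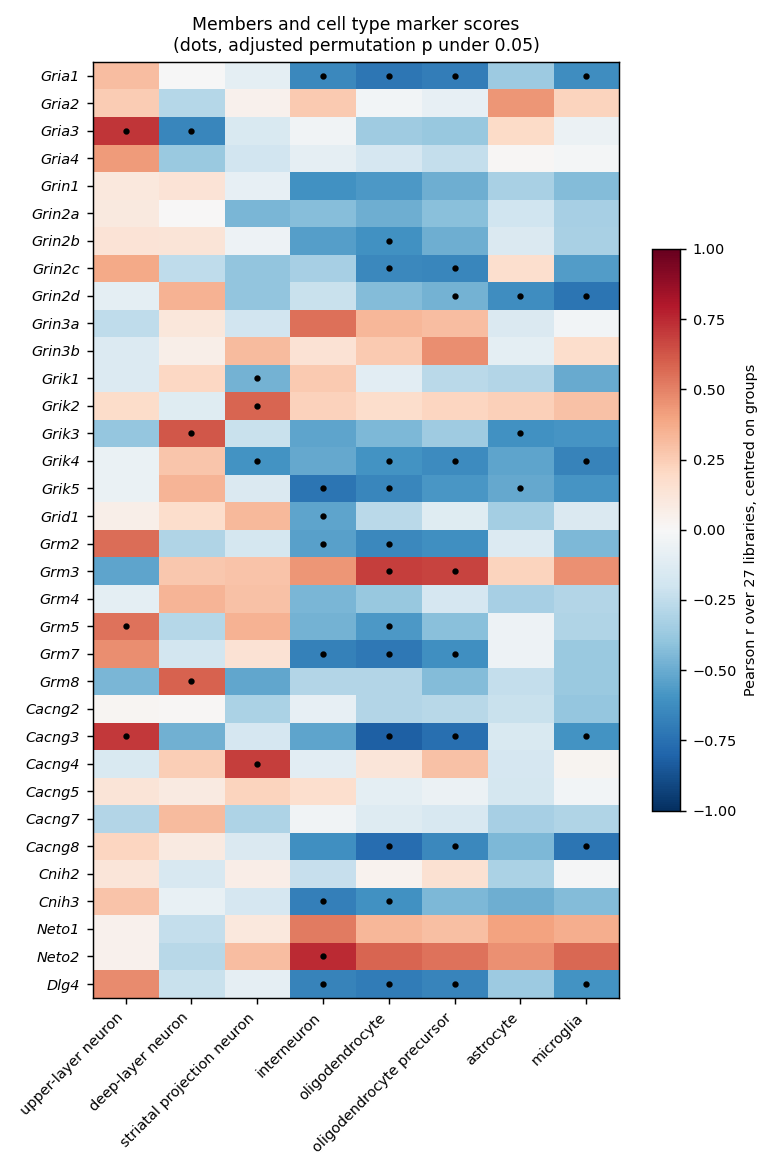
Pearson r of each member (down the page, by family) with each of 8 marker scores (across) over 27 libraries centred on their groups, red for positive and blue for negative. Dots mark the 49 relations with an adjusted permutation p under 0.05, 13 of them with the oligodendrocyte score.

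**Figure D5:**
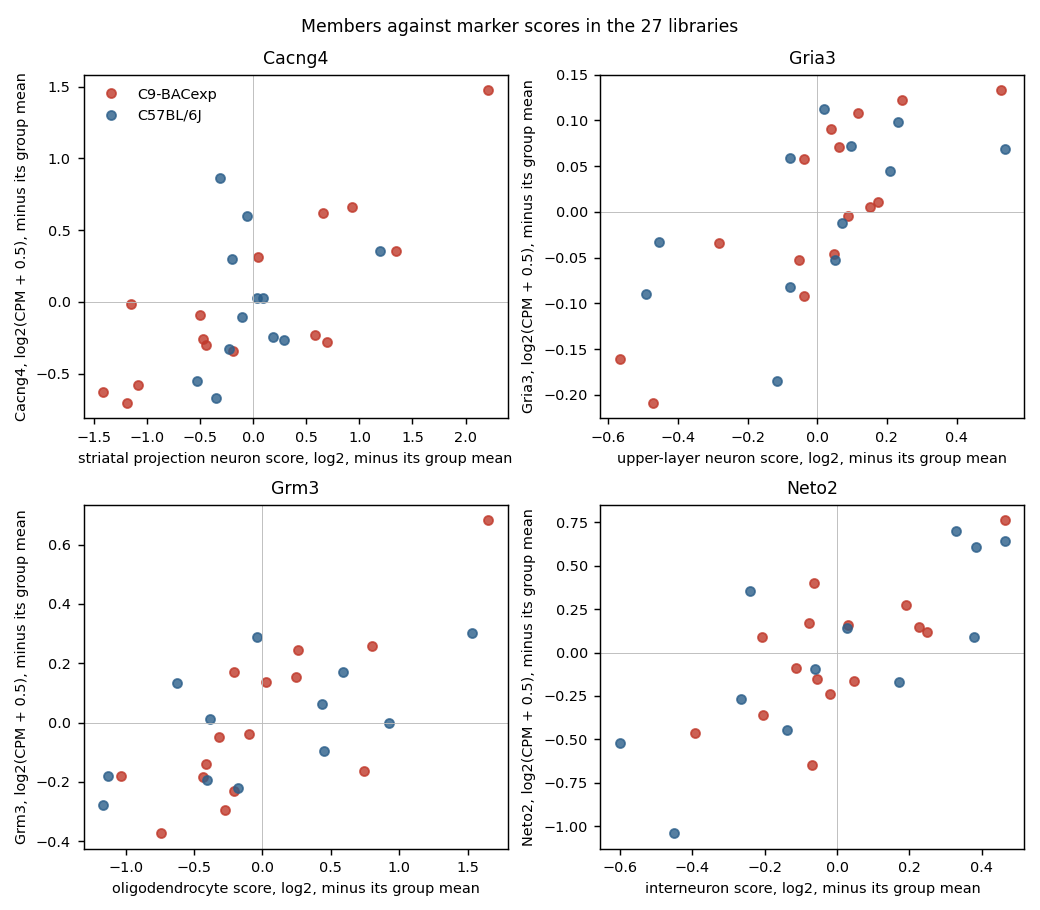
Log2 level of Cacng4, Gria3, Grm3 and Neto2 minus its group mean (vertical axes) against the log2 score of the marker list named under each panel minus its group mean (horizontal axes), with C9-BACexp libraries in red and C57BL/6J libraries in blue. All 4 relations are positive, with r of 0.69, 0.71, 0.69 and 0.75.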

How the data were processed

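RNA-seq of sorted nuclei from 27 mice, with 1 library per mouse, was analysed at the gene level. The deposited values are expected counts, made by the authors with Salmon 1.10.0 on spliced and unspliced transcripts of NCBI Annotation Release 109 with 3 human C9ORF72 transcripts and EGFP-KASH added, GRCm39 as decoy, and tximport in R 4.3.1, and they are not normalized between libraries. Unspliced reads enter the values, so they follow nuclear RNA and not messenger RNA alone. Libraries are rRNA-depleted and stranded, and a count estimate could share reads between paralogs. Because the protocol text of the labels is about transfected cells, sample handling was taken from the study's methods.

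Values were rounded, filtered with filterByExpr (minimum count 10, minimum total 15), scaled by TMM and tested in edgeR 4.0.16 (R 4.3.3) by quasi-likelihood with robust fitting, with the 6 groups plus 4 unwanted-variation factors as terms of 1 model, the factors being taken from the residuals of a first fit. The study used 4 factors but does not say how they were taken. Benjamini-Hochberg adjustment ran jointly over 5 of the 11 comparisons (genotype under each treatment, and in C9-BACexp mice crRNA-13 over either control) and singly over each of the other 6. SE is the log2 fold over the square root of F. Comparisons within a genotype share control libraries, and genotype and treatment comparisons share libraries too, so their signs are not independent. Relations used log2(CPM + 0.5) and permuted libraries within groups. The statistics were tested on simulated data with independent libraries. These data held no hidden differences between mice, so they cannot show how the factors act on p-values where such differences exist. Each library is an independent animal per the labels, so p-values without factors measure the spread between mice. With the factors they measure only the spread between mice left after the 4 factors. These were taken from the same libraries and treated as known.

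Members, lists and tests were chosen with earlier results of these data known. The genes named are the members called in any comparison with or without factors, the 2 members of smallest p where none was called, and, per comparison, up to 4 called genes of each further list, of which 1 is not reported here. Chosen after their values were seen were Grin2c and Cacng4 with NTG, Grik3 with EGFP-KASH only, the members of smallest p at folds under 1.2, Grin1, Dlg4, Neto1 and Neto2 in the mean over treatments, and the members with the largest r of each list. The relation of Grik1 to the interneuron score was chosen so as well. Alternatives were no factors, 2 factors, RLE size factors, no filter, limma-trend (3.58.1), DESeq2 (1.42.0), the replicate block, p adjusted alone, and leaving out each library. The any-fold limit, the fits without libraries of high striatal score and the leave-one-out fits without factors were added after seeing the data. The striatal fits left out 7 libraries, among them 6 of the 15 C9-BACexp libraries, so their groups were also smaller. Limits for a count of 0 were 3 counts per library, 0.0801 to 0.144 CPM, and cover counting error only.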

Additional observations from a re-analysis of the deposited data

Results flagged for a closer look

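In 136 groups of 4 to 6 libraries, 9 had 1 library far from the rest of its group for a member, where chance alone gives about 1 in 20 groups. In C9-BACexp mice with NTG these were replicate 6 for Cacng4 (77.0 CPM, the others 17.5 to 34.2), Grik2 (937 CPM, the others 605 to 712) and Grm7 (1648 CPM, the others 1067 to 1236), and replicate 2 for Cacng5 (14.0 CPM, the others 3.99 to 7.03). Replicate 6 also had the highest striatal score of all libraries. In C9-BACexp mice with crRNA-13 they were replicate 2 for Grm4 (167 CPM, the others 43.3 to 77.4) and replicate 3 for Cacng8 (125 CPM, the others 86.3 to 98.6). In C57BL/6J mice with NTG they were replicate 1 for Gria4 (564 CPM, the others 626 to 647) and replicate 3 for Grin2c (30.3 CPM, the others 16.4 to 18.6), and in C57BL/6J mice with EGFP-KASH only replicate 2 for Cacng2 (311 CPM, the others 199.5 to 215).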

How the results depend on the processing

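Counts of called members changed with the processing, and the cause was not tested. For the genotype difference with NTG the 2 calls became 0 with no factors, 6 in DESeq2 with factors, 1 in DESeq2 without, 1 with the replicate block, 6 with p adjusted alone, 4 without the libraries of high striatal score (0 if the factors were dropped too) and 2 to 5 when 1 library was left out. With crRNA-13 the count of 0 became 1 in DESeq2 with factors, 1 without the striatal libraries and 0 to 2 leaving out 1 library. With EGFP-KASH only the 1 call became 0 with no factors, 2 factors, DESeq2 without factors, the replicate block and without the striatal libraries (with and without factors), and 0 to 1 leaving out 1 library. In the mean over treatments the 5 calls became 1 with no factors, 1 in DESeq2 without factors, 0 without both striatal libraries and factors, 8 at any fold, 2 to 6 leaving out 1 library and 0 to 1 doing so with no factors. DESeq2 with factors called 1 member in C57BL/6J mice for crRNA-13 over EGFP-KASH, and the other treatment comparisons and the interaction had 0 calls in every alternative run. The marker relations numbered 49 under RLE, 50 with log2(CPM + 2), 73 with the replicate block and 25 to 78 leaving out 1 library.

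Some estimates turned direction, all in comparisons that did not call the member. With crRNA-13, Gria1 was at 0.17 and 0.18 without the striatal libraries (with and without factors), and leaving out 1 library gave -0.10 to 0.060 for Gria1, -0.24 to 0.012 for Grin2a and -0.21 to 0.46 for Grin2d. With EGFP-KASH only, Grik3 was at -0.086 without striatal libraries and factors, and Grm4 at -0.050 with no factors, -0.054 in DESeq2 without factors, -0.018 with the replicate block, -0.16 and -0.35 without the striatal libraries (with and without factors) and -0.11 to 0.47 leaving out 1 library. Replicate numbers did not pair the mice: 10 of 48 same-numbered pairs had a correlation over 0.1 (-0.16 to 0.29). Under the block the call ended for Grik5 with NTG (log2 fold 0.37, adjusted p = 0.0568) and in the mean over treatments (0.23, adjusted p = 0.0271, fold under 1.2), for Gria1 with EGFP-KASH only (0.43, adjusted p = 0.0593) and for Grin2d in the mean over treatments (0.31, adjusted p = 0.0736). No other member called past both limits lost its call, and of the members past the p limit at any fold Gria1 (adjusted p = 0.0585) and Grin2a (0.0605) no longer passed it in the mean over treatments.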
